A study of Mus musculus with 8 samples.

Results

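A set of 10 genes of cytokine signalling through Janus kinases (JAKs) and signal transducers and activators of transcription (STATs) were followed in RNA labelled as spleen, from miR-155 knockout and wild-type mice. They are the kinase genes Jak1, Jak3 and Tyk2, the receptor gene Il6st, the transcription factor genes Stat3, Stat4 and Stat6, and the inhibitor genes Socs3, Socs5 and Pias1. All 10 were found by the gene name that the array tables give, as 19 of 44170 features, and each gene is described by its brightest feature, judged by the log2 mean of the 8 arrays. The study hybridised total RNA of 8 separate spleens to 1-colour NimbleGen arrays, 4 from animals labelled as miR-155 knockout and 4 from animals labelled as wild type. Of the knockout animals, Mim1-5 and Mim1-6 are labelled female and Mim2-2 and Mim2-3 male, so sex and name prefix coincide among them. Wild-type animals 1 and 3 are labelled female and 2 and 4 male. The labels used here give no strain or age, and name no treatment or further allele.

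A cytokine that binds its receptor brings together the JAKs bound to the receptor's tails. The kinases phosphorylate the receptor and then the STATs docked there, which pair, enter the nucleus and switch on genes. Proteins of the SOCS family are induced in turn and block the kinases or the receptor, and PIAS proteins restrain STATs in the nucleus. In the spleen this route serves lymphocyte survival through the common gamma chain and JAK3, type 1 T cell responses through STAT4, IL-4 responses of B cells through STAT6, and IL-6 family signals through gp130 and STAT3. STAT3 and STAT6 also work in mammary epithelium, where STAT3 drives the regression of the gland after lactation.

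The microRNA named in the knockout label is miR-155, which restrains its targets by pairing through bases 2 to 8, its seed, shown here in capitals because it is what the labelled genotypes are about. It comes from chromosome 16, written as chr16:84714143-84714165 on the plus strand in GRCm38.p6, and is credited to RefSeq, as are the promoters that follow.
mmu-miR-155-5p: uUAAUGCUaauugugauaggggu

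The promoter of Socs3 is shown because STAT3 induces this brake, so that it reads out the pathway as well as closing it. The window covers 250 bases before to 50 bases after the start of the gene, chr11:117969317-117969616 on the minus strand of GRCm38.p6, and capitals mark the STAT motif TTCNNNGAA, which reads the same on both strands.
Socs3: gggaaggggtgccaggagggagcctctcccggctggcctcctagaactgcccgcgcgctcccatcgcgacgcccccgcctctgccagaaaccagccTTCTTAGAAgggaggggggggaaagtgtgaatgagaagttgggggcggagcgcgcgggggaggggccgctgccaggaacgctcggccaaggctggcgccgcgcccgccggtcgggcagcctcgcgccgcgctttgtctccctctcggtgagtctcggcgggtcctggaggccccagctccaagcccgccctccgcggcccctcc
The motif begins 154 bases before the start. It occurs in 8.30% of 32851 promoter windows of this length, and the STAT6 form, whose spacer is longer by 1 base, in 6.95%. Of 10 windows for 9 members, this is the 1 window that holds either form, and the windows of Stat3, at chr11:100939491-100939790, and Stat6, at chr10:127642736-127643035, hold neither. Those of Stat3 and Stat6 are printed because these members had the largest genotype differences below.
Stat3: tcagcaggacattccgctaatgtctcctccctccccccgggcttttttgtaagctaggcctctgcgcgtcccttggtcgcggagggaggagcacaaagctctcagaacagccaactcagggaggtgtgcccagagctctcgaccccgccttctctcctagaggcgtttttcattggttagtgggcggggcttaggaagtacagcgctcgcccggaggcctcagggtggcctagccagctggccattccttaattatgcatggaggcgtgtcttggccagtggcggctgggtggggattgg
Stat6: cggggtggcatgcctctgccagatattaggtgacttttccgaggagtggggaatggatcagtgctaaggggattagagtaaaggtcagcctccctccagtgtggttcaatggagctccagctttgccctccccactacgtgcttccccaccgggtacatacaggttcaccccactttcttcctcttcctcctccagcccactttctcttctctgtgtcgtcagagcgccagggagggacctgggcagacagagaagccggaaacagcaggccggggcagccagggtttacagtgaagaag
The Stat6 window lies on the plus strand and holds 8 CG pairs, the Stat3 window on the minus strand holds 15 and the Socs3 window 31, against a median of 7 over all windows. These are descriptions of the letters, not of binding.

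Array quality and labels bear on every value below. Median intensities were 112.1 to 119.1 on all 8 arrays, and random control probes stood at log2 4.94 to 5.24, which serves as background here. Mim2-2 and Mim2-3 stood apart, correlating at 0.811 to 0.877 with the other 6 arrays, which correlated at 0.911 to 0.943 with each other over all features. The X inactivation transcript Xist read at least 8.35 on every array, and the Y-linked Ddx3y averaged 8.61 in labelled knockout females and 7.03 in labelled wild-type females, against 8.72 and 6.79 in the males, so these genes go against the sex labels. The words male and female therefore mean arrays labelled so. Ddx3y did separate the genotypes, with 8.39 to 8.83 in the knockout and 6.26 to 7.33 in the wild type, as 7.82% of genes did in either direction. The cause was not tested. The feature of BIC, the host transcript of miR-155, read 7.51 in Mim1-5, 5.28 to 5.46 in the other 3 knockout animals and 4.84 to 5.63 in the wild type. Its highest value was thus in an array labelled knockout, and since the deleted part is not known here, this feature does not check the genotype. Spleen markers were present, with all 10 B cell markers above the random probes on all arrays, but so were 8 of 10 markers of mammary epithelium and 5 of 7 milk protein genes. Csn2, a casein gene of milk, read 14.9 to 15.41 in the wild type and 8.22 to 13.9 in the knockout. The tissue label is therefore in doubt, and spleen below means RNA labelled so.

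No member passed the test of knockout against wild type over the 8 arrays. In the fit of limma with sex as an additive term, 0 of 10 members passed an adjusted p of 0.05, nor did any of the 44170 features (0%). At an unadjusted p under 0.05, 1 member was lower in the knockout, namely Stat3, and 0 higher. Over 24171 genes taken by their brightest feature, 6.62% were lower and 7.70% higher at this level. The knockout and wild-type values overlapped for all 10 members, against 7.82% of genes in which they did not. The median difference of the members was -0.06 on the log2 scale, and 0.06 over all genes. Both Mim2 arrays lay outside the range of the other 6 for 6 of 10 members, 3 below and 3 above, a count made after the values had been seen. Over all genes 14.4% lay below and 16.3% above in this way.

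**Figure D1:**
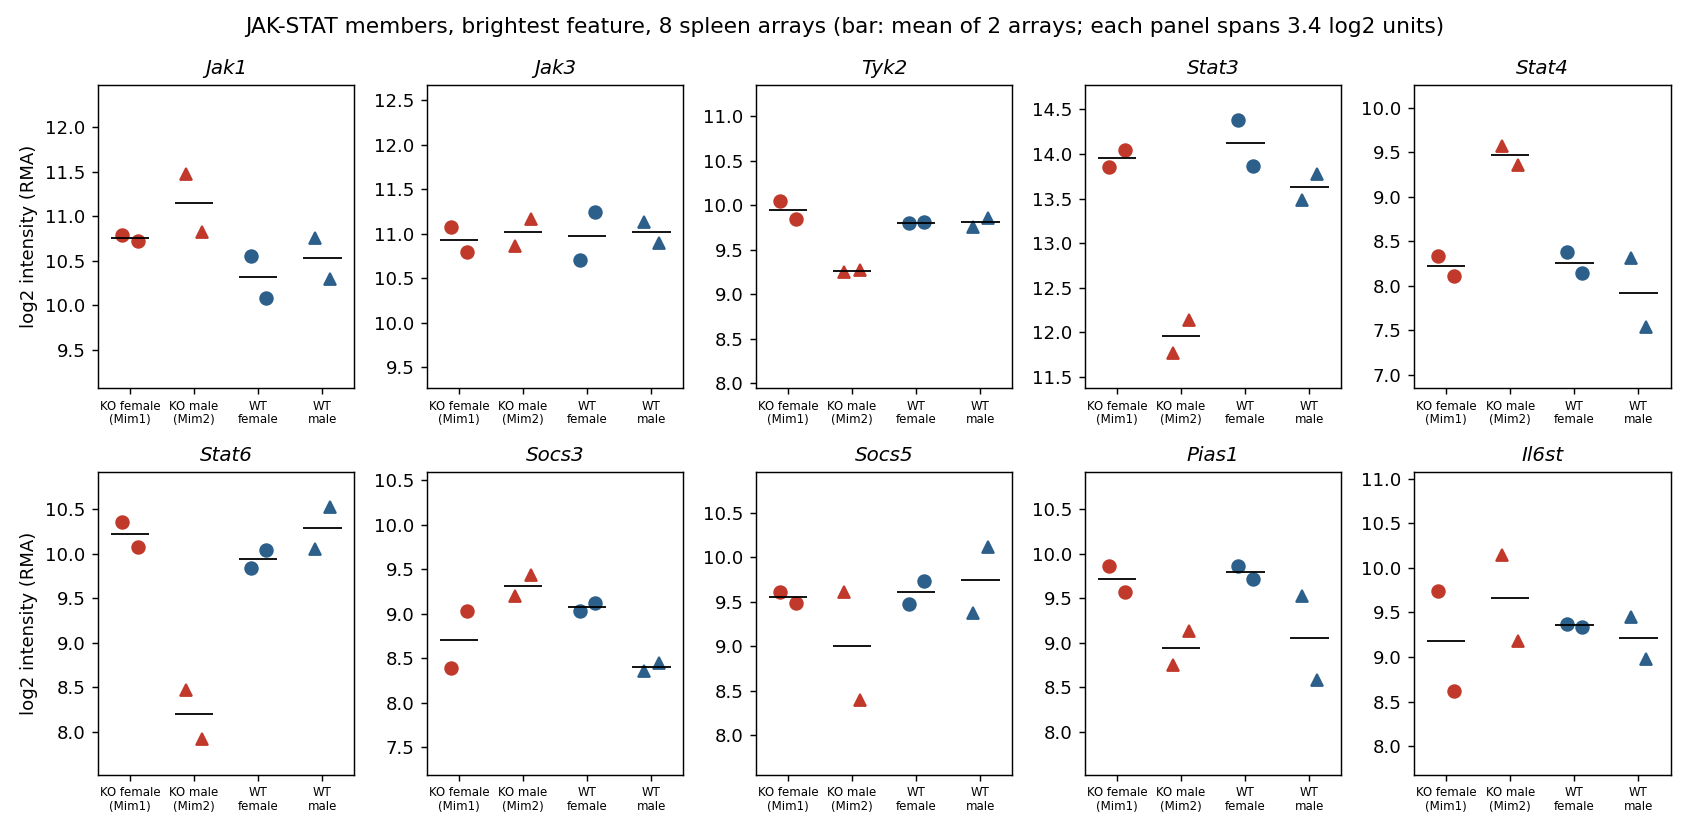
Log2 intensity of the brightest feature of each member on each of the 8 arrays, by genotype and labelled sex, with a bar at the mean of 2 arrays. The Mim2 arrays lie at 11.77 and 12.14 for Stat3 and at 8.47 and 7.92 for Stat6, below every other array, and at 9.57 and 9.36 for Stat4, above every other array.

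Jak1 is the kinase shared by gamma chain, gp130 and interferon receptors. On the log2 scale Mim1-5 read 10.79, Mim1-6 10.72, Mim2-2 11.47 and Mim2-3 10.82. Wild-type animals 1 to 4 read 10.56, 10.76, 10.08 and 10.30. Mim2-2 was the highest array, and the genotypes overlapped only through wild-type animal 2, which lay between both Mim1 arrays. The difference was 0.53 ± 0.29 (SE) with a 95% confidence interval of -0.14 to 1.19 (limma, adjusted p = 0.452). The single feature of the gene lies on chromosome 4 from 100825648 to 100843921. Positions of features are those of the array tables, in MM9.

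Jak3 is the partner kinase of the common gamma chain and is largely restricted to blood cells. The brightest of its 4 features read 11.08, 10.79, 10.86 and 11.17 in Mim1-5, Mim1-6, Mim2-2 and Mim2-3, and 10.70, 11.13, 11.24 and 10.90 in wild-type animals 1 to 4. These values mixed fully between genotypes, and the difference was -0.02 ± 0.28 (SE) with an interval of -0.64 to 0.61. The other 3 Jak3 features were lower in the knockout by -0.55, -0.49 and -0.78, with limma adjusted p of 0.459, 0.480 and 0.429. On the feature with the difference of -0.55 the knockout arrays read 8.49 to 8.96 and the wild-type arrays 8.67 to 9.60, so that only wild-type animal 4 lay within the knockout range. The 4 features overlap on chromosome 8, the brightest from 74200432 to 74212210 and the shortest from 74202227 to 74204043, and each exceeded the random probes throughout.

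Tyk2 serves the receptors of IL-12, IL-23 and type I interferon. On its brightest feature the wild-type arrays were tightly grouped at 9.80, 9.76, 9.81 and 9.86, the Mim1 arrays read 10.05 and 9.85, and the Mim2 arrays 9.25 and 9.27. The Mim2 pair lay below the other 6 arrays, while Mim1-5 was the highest. The knockout minus wild type difference was -0.21 ± 0.28 (SE), with an interval of -0.83 to 0.42 (limma, adjusted p = 0.767). The other Tyk2 feature exceeded the random probes on 6 of 8 arrays and read 4.97 to 7.32 in the wild type.

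Il6st encodes gp130, the signalling chain of the IL-6 family receptors. Mim1-5 read 9.74, Mim1-6 8.62, Mim2-2 10.14 and Mim2-3 9.18, against 9.37, 9.45, 9.34 and 8.98 in wild-type animals 1 to 4. Mim1-6 lay below all wild-type arrays, Mim1-5 and Mim2-2 above them and Mim2-3 among them, with an SD of 0.66 (n = 4) against 0.21 (n = 4). The difference was 0.13 ± 0.37 (SE) with an interval of -0.70 to 0.97. Its other feature exceeded the random probes on 4 of 8 arrays.

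Stat3, the main transducer of gp130, was the member lowest in the knockout. Its brightest feature, on chromosome 11 from 100749547 to 100800701, gave 13.85 and 14.05 in Mim1-5 and Mim1-6, and 11.77 and 12.14 in Mim2-2 and Mim2-3. Wild-type animals 1 to 4 read 14.38, 13.48, 13.87 and 13.78. The Mim1 arrays lay inside the wild-type range and the Mim2 arrays far below it, and the means were 12.95 ± 1.16 (SD, n = 4) for knockout and 13.88 ± 0.37 (SD, n = 4) for wild type. The difference of -0.92 ± 0.37 (SE) had an interval of -1.76 to -0.09 but did not pass (limma, adjusted p = 0.334). With no sex term the same difference had an unadjusted p of 0.11 in limma. Without both Mim2 arrays it was -0.17. The other Stat3 feature showed the same order, with 12.08 and 12.15 in the Mim1 arrays, 8.79 and 10.23 in the Mim2 arrays and 11.78 to 12.65 in the wild type. Its difference was -1.29 ± 0.48 (SE).

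Stat6, the transducer of IL-4 and IL-13, split the knockout animals in the same way. Mim1-5 and Mim1-6 read 10.36 and 10.08, Mim2-2 and Mim2-3 8.47 and 7.92, and the values were 9.84, 10.05, 10.04 and 10.52 in wild-type animals 1 to 4. Both Mim1 arrays lay within the wild-type range and both Mim2 arrays more than 1 log2 unit under it. Over all 8 arrays the difference was -0.91 ± 0.48 (SE) with an interval of -2.0 to 0.18 (limma, adjusted p = 0.434). Stat6 has 1 feature, on chromosome 10 from 127080251 to 127097251.

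Stat4, which carries IL-12 signals in T and NK cells, went the other way. Its brightest feature, on chromosome 1 from 52065087 to 52129288, read 8.34, 8.11, 9.57 and 9.36 in Mim1-5, Mim1-6, Mim2-2 and Mim2-3, and 8.38, 8.31, 8.14 and 7.54 in wild-type animals 1 to 4. The Mim2 arrays were the highest and the Mim1 arrays lay within the wild-type range. The difference was 0.75 ± 0.39 (SE) with an interval of -0.12 to 1.63 (limma, adjusted p = 0.418). The other Stat4 feature read 8.40 and 7.55 in the Mim1 arrays, 9.09 and 8.72 in the Mim2 arrays, and 7.63, 7.14, 6.86 and 8.45 in wild-type animals 1 to 4, and there too the Mim2 arrays were the highest. Its difference was 0.92 ± 0.39 (SE), with an adjusted p of 0.349 in limma.

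Among the inhibitors, Socs3, which blocks gp130 and its JAKs, read 8.39, 9.03, 9.20 and 9.43 in Mim1-5, Mim1-6, Mim2-2 and Mim2-3. Wild-type animals 1 to 4 read 9.03, 8.36, 9.12 and 8.45, so that the wild-type females were the higher pair there and the Mim2 males the higher pair in the knockout. The difference of 0.27 ± 0.34 (SE) had an interval of -0.50 to 1.05 (limma, adjusted p = 0.750).

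Socs5, a SOCS protein linked to restraint of IL-4 and EGF receptor signals, read 9.61, 9.49, 9.61 and 8.40 in the knockout animals in the same order. It read 9.48, 9.37, 9.73 and 10.12 in wild-type animals 1 to 4. Mim2-3 was low by itself, with the other 3 knockout arrays inside the wild-type range, and the difference was -0.40 ± 0.36 (SE) with an interval of -1.22 to 0.42. The other Socs5 feature, of the same stretch on chromosome 17, did not single out that array, reading 6.70 in Mim2-2 and 6.80 in Mim2-3 against 7.09 to 7.77 on the other 6.

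Pias1, a SUMO ligase that restrains STATs in the nucleus, read 9.86, 9.57, 8.75 and 9.13 in Mim1-5, Mim1-6, Mim2-2 and Mim2-3. It read 9.86, 9.53, 9.72 and 8.58 in wild-type animals 1 to 4, the lowest value of all being a wild-type one. The difference was -0.10 ± 0.31 (SE), with an interval of -0.79 to 0.59 (limma, adjusted p = 0.912). Both Pias1 features had differences near 0, the other one 0.01.

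**Figure D2:**
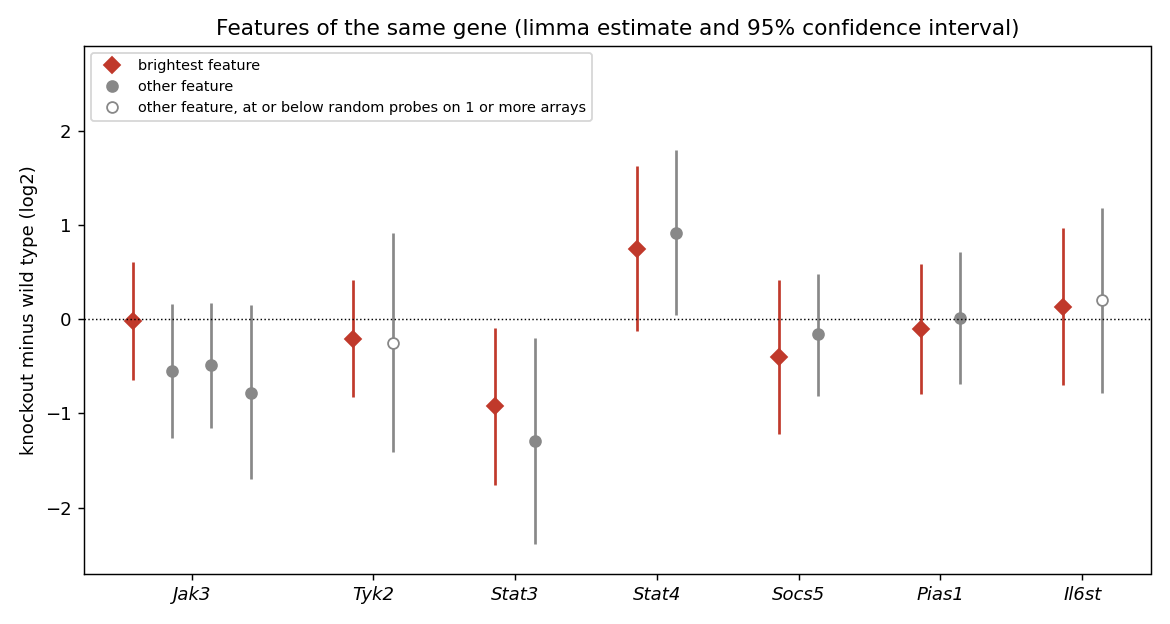
Knockout minus wild type difference on the log2 scale for every feature of the 7 members with several features, as limma estimates with 95% confidence intervals. The features of Stat3 (-0.92 and -1.29) and Stat4 (0.75 and 0.92) point the same way, while the brightest Jak3 feature (-0.02) lies above the other 3.

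The genotype difference was then taken within each labelled sex. In females, with the Mim1 animals as knockouts, 0 of 10 members passed and 0 had an unadjusted p under 0.05, where 0% of features passed and 5.15% of genes had such a p. In males, with the Mim2 animals as knockouts, Stat6 passed. It was lower by -2.09 ± 0.39 (SE) on the log2 scale, 4.26-fold, with an interval of -2.99 to -1.19 (limma, adjusted p = 0.0342; 2 against 2 arrays, lower on 2 of 2). This was 1 of 10 members lower and 0 higher, against 3.21% of genes lower and 1.05% higher in the same contrast. At an unadjusted p under 0.05 there were 4 members, where 24.2% of genes had such a p.

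The call for Stat6 was not kept with fewer arrays. Leaving out any 1 of the arrays of Mim1-5, Mim1-6, Mim2-2, Mim2-3 or wild-type animals 1 to 4 ended it, with differences from -2.37 to -1.81. Each of these fits left 1 array in a group. Fewer features were called in males in every one of them, so the loss was not particular to Stat6. Where a labelled female was left out, the Stat6 difference in males stayed at -2.09. Where a labelled male was left out, the contrast was 1 array against 2, and the lone array was assumed to vary like the other groups. The call held in the 6 alternatives that kept all arrays, with adjusted p from 0.00788 to 0.0428.

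The other members with an unadjusted p under 0.05 in males were Stat3, Stat4 and Socs3. Stat3 was at -1.67 ± 0.38 (SE), 3.19-fold, with an interval of -2.55 to -0.80, just short of the threshold on both of its features (limma, adjusted p = 0.0516 and 0.0505). It passed in 5 of the 6 alternatives that kept all arrays, listed in the closing section. Stat4 was at 1.54 ± 0.40 (SE), 2.91-fold, with an interval of 0.62 to 2.46 (limma, adjusted p = 0.0702), and its other feature at 1.11 (limma, adjusted p = 0.281). Socs3 stood at 0.91 ± 0.37 (SE), with an interval of 0.04 to 1.77 (limma, adjusted p = 0.194). For the remaining 6 members the interval in males included 0.

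**Figure D3:**
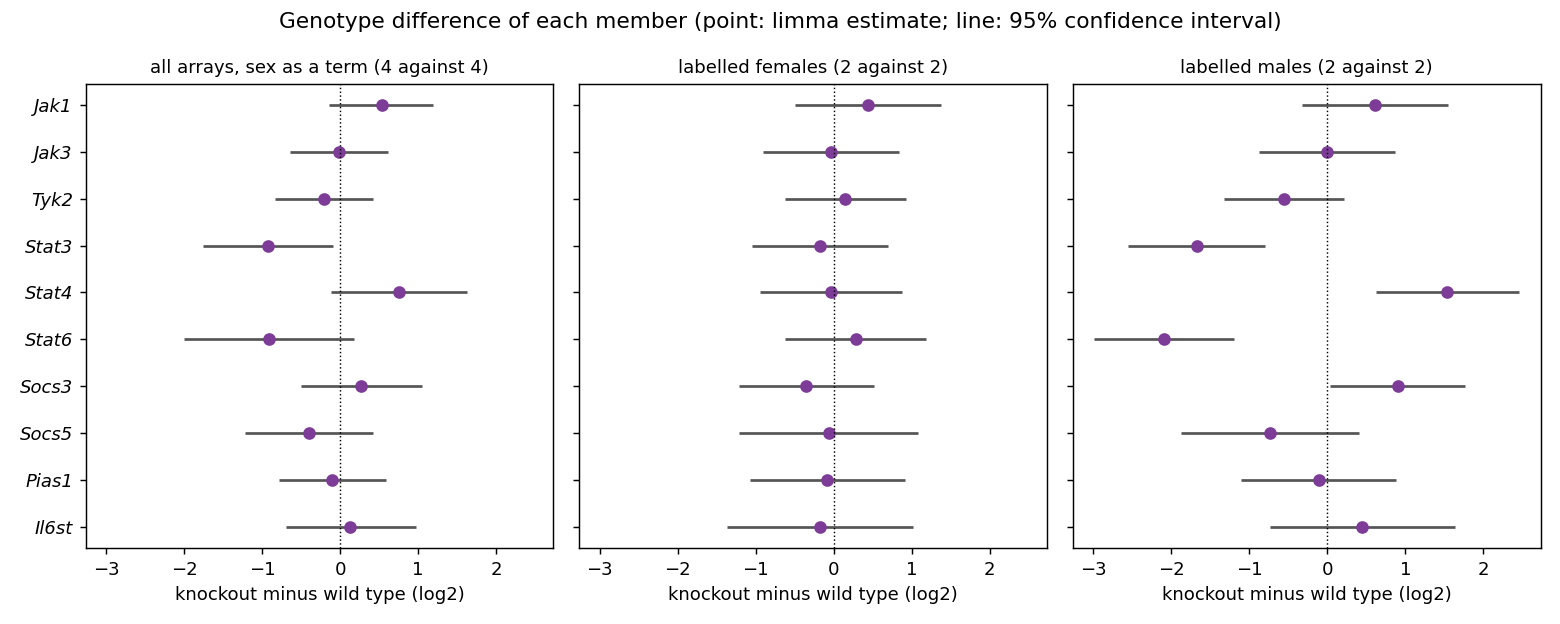
Knockout minus wild type difference of each member on the log2 scale with its 95% confidence interval, over all arrays, within labelled females and within labelled males. All 10 female intervals include 0, whereas those of Stat3, Stat4, Stat6 and Socs3 in males do not, and of these Stat6 passed adjustment over all features.

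Whether the genotype difference itself changed between the labelled sexes was tested by the interaction, which no feature passed (0%). Since labelled sex and name prefix coincide among the knockouts, the interaction cannot tell sex from prefix. For Stat6 the male minus female difference was -2.37 ± 0.55 (SE), with an interval of -3.64 to -1.10 and an unadjusted p of 0.00271 (limma, adjusted p = 0.181). For Stat3 it was -1.50 ± 0.53 (SE), for Stat4 1.58 ± 0.56 and for Socs3 1.26 ± 0.53, with limma adjusted p of 0.294, 0.294 and 0.363. These 4 of 10 members had an unadjusted p under 0.05, against 13.6% of genes. Both Mim2 arrays lay below all other arrays for Tyk2, Stat3 and Stat6 and above them for Jak1, Stat4 and Socs3.

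Markers of other cells moved with the same 2 arrays. Mean log2 intensities of 10 mammary epithelium markers were 7.69 in Mim2-2 and 8.76 in Mim2-3, 10.80 and 10.94 in the Mim1 arrays, and 10.88 to 11.23 in the wild type. In males 9 of the 10 were lower at an unadjusted p under 0.05 and 7 passed, against 2892 and 775 of all 24171 genes. The other marker, the keratin gene Krt19, went the other way, reading 9.05 and 8.5 in the Mim2 arrays, 5.77 and 6.24 in the Mim1 arrays and 4.76 to 5.71 in the wild type, and it passed as higher in males by 3.33 ± 0.42 (SE). The keratin gene Krt8 of this list read 12.35, 12.32, 8.42 and 8.8 in Mim1-5, Mim1-6, Mim2-2 and Mim2-3, and 11.91 to 13 in the wild type. These are the arrays on which Stat3 and Stat6 were low, and the part of mammary tissue in that result was not tested. The 7 milk protein genes followed a different order, with list means of 9.60, 8.84, 7.80 and 9.53 in Mim1-5, Mim1-6, Mim2-2 and Mim2-3 against 10.82 to 11.21 in the wild type. In these bulk samples fewer cells of a type and less RNA per cell cannot be told apart.

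Markers of adipocytes and lymphocytes stood beside the members that were higher. The mean of 6 adipocyte markers was 11.07 and 10.45 in the Mim2 arrays, against 7.21 and 7.27 in the Mim1 arrays and 7.57 to 7.75 in the wild type. T cell markers averaged 8.98 and 8.73 in the Mim2 arrays, 8.44 and 8.20 in the Mim1 arrays and 7.53 to 8.01 in the wild type. For NK markers the means were 8.25 and 8.43, 7.95 and 7.79, and 6.96 to 7.65 in the same order. T cells and NK cells are the main site of Stat4, and their part in its values was not tested. B cell markers averaged 9.87 to 10.73 in the knockout and 8.72 to 9.11 in the wild type, without overlap. Singly, 6 of these 10 markers separated the genotypes, against 7.82% of all genes, and no member did. The means of the T cell, NK, neutrophil, stromal, pancreas and milk protein lists did not overlap either. Macrophage markers ran from 10.24 to 10.95 and from 9.73 to 10.36, and neutrophil markers from 7.84 to 8.44 and from 8.51 to 8.89. Erythroid markers ran from 9.95 to 11.04 in the knockout and 10.75 to 11.07 in the wild type, stromal markers from 8.86 to 9.52 and from 8.34 to 8.53. Pancreas markers, among them Amy2b with 10.87 to 11.97 and 6.4 to 7.89, averaged 7.09 to 8.23 and 5.57 to 5.80.

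**Figure D4:**
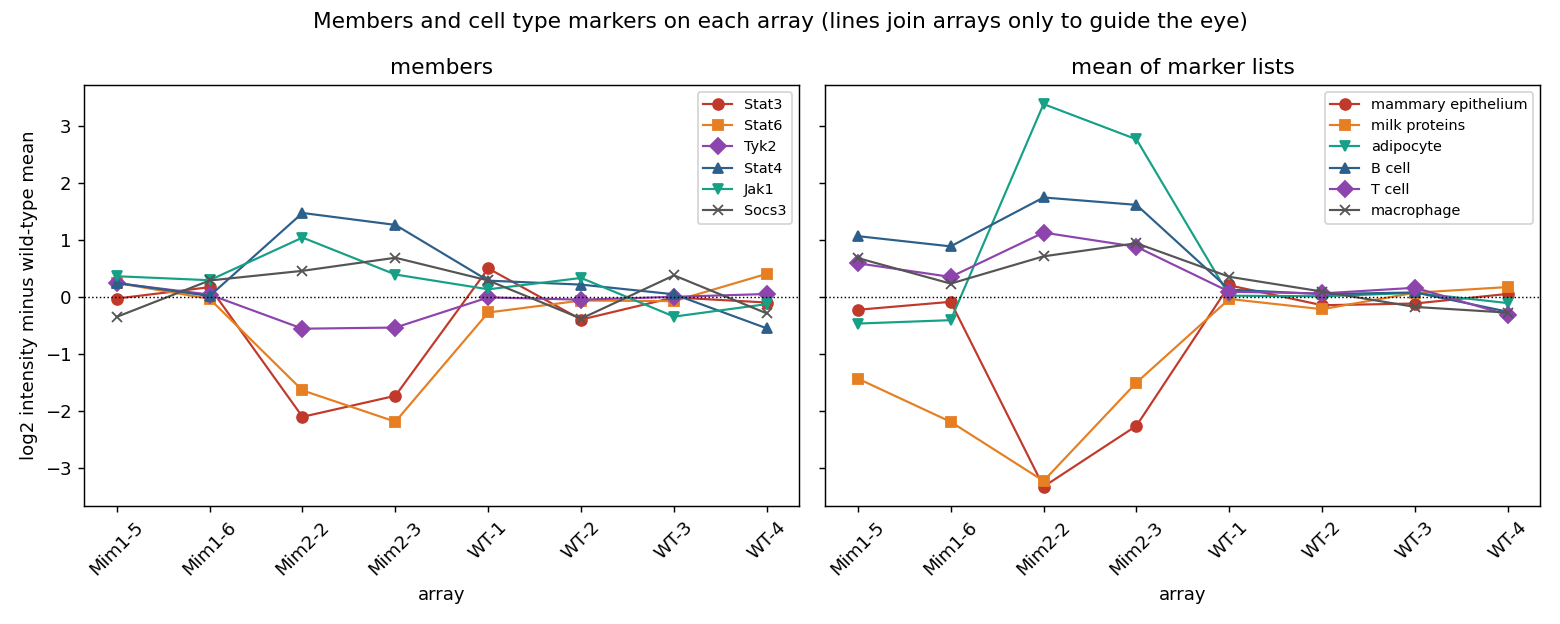
Log2 intensity minus the wild-type mean on each array, for 6 members on the left and for the means of 6 marker lists on the right. Stat3, Stat6 and the mammary list are low on Mim2-2 and Mim2-3, and Stat4 and the adipocyte list are high there.

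How alike the members were was measured as the mean absolute difference between their log2 profiles over the 8 arrays, each centred on its own mean. Stat3 and Stat6 were each other's nearest member, at 0.39, and both lay farthest from Stat4, at 1.23. Jak1 was nearest to Il6st, at 0.27, and Tyk2 to Pias1, at 0.28. The range over the arrays was 2.61 for Stat3, 2.60 for Stat6 and 2.04 for Stat4, and 0.54 for Jak3, the flattest member. Over 16235 genes with a mean at least 1 log2 unit above the random probes, the profile nearest to Stat3 was that of Atf7, at 0.10, nearest to Stat6 that of Rnpepl1, at 0.10, and nearest to Stat4 that of Ly6c1, at 0.06. For Jak1 it was Usp12 (0.09), for Jak3 Ndufa13 (0.07), for Tyk2 Txnrd2 (0.05), for Socs3 Hnrnpa1 (0.14), for Socs5 Prkra (0.10), for Pias1 Lypla2 (0.12) and for Il6st Tnnt3 (0.12). These distances are descriptions over 8 arrays.

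Around the members, 85 of 90 listed genes of the pathway were measured, as other JAKs and STATs, brakes, receptors, cytokines and STAT targets. None passed over the 8 arrays (limma, adjusted p from 0.262 up), and at an unadjusted p under 0.05 there were 14 higher and 9 lower, against 7.70% and 6.62% of all genes. Their median difference was -0.01. In males, 2 were higher and 4 lower at an adjusted p under 0.05, against 1.05% and 3.21% of all genes.

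Of the remaining 5 JAKs and STATs, 1 was higher and 0 lower at an unadjusted p under 0.05, against 7.70% and 6.62% of all genes. Stat2, a transducer of type I interferon signals, differed by 0.77 ± 0.33 (SE), and Stat5a, the prolactin-driven STAT of mammary epithelium, by -0.72 ± 0.35. Stat5a read 9.91 and 10.02 in the Mim2 arrays, 10.23 and 10.67 in the Mim1 arrays and 10.18 to 11.33 in the wild type, again lowest in the Mim2 arrays. Jak2 and Stat5b differed by 0.12 and -0.02.

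Of 14 other brakes, 2 were higher and 2 lower at that level, against 7.70% and 6.62% of all genes. Socs2, which damps growth hormone signals, read 8.56, 7.93, 6.46 and 6.39 in Mim1-5, Mim1-6, Mim2-2 and Mim2-3, and 9.52, 9.08, 9.65 and 9.49 in wild-type animals 1 to 4. All 4 knockout arrays lay below all wild-type arrays, and the difference was -2.10 ± 0.38 (SE; limma, adjusted p = 0.262). Within males it passed, at -2.86 (limma, adjusted p = 0.0225). Ptpn6, the phosphatase SHP-1 of blood cells, read 12.37 to 12.45 in the knockout and 11.20 to 11.70 in the wild type, also without overlap. Socs1, a published target of miR-155, read 5.45 to 5.91 in the knockout and 5.68 to 6.91 in the wild type, close to the random probes, and differed by -0.53 ± 0.33 (SE).

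Of the receptor chains of the gamma chain group, 5 of 9 were higher at an unadjusted p under 0.05 and 0 lower, against 7.70% and 6.62% of all genes, with a median of 0.92. Il2rg, the common gamma chain that binds JAK3, read 12.22, 11.78, 12.78 and 12.51 in Mim1-5, Mim1-6, Mim2-2 and Mim2-3 and 11.10, 11.45, 10.47 and 10.62 in wild-type animals 1 to 4. The genotypes did not overlap, and it differed by 1.41 ± 0.32 (SE). Jak3 itself was at -0.02 on its brightest feature and at -0.55, -0.49 and -0.78 on its others. Il21r, the IL-21 receptor, differed by 1.53 ± 0.36 (SE), without overlap, and it passed in males with 2.07 (limma, adjusted p = 0.0432). The only other member of this list to pass in males was Il2ra, with 1.81 (limma, adjusted p = 0.0387), named after its value was seen. The B and T cell markers were higher on the same arrays, and their part was not tested.

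Among 8 gp130-type receptors, 2 were higher and 0 lower at an unadjusted p under 0.05, against 7.70% and 6.62% of all genes. They were Lepr at 1.17 ± 0.33 (SE) and Il27ra at 0.76 ± 0.32, and neither passed (limma, adjusted p = 0.268 and 0.348). Il27ra is a partner chain of gp130 and read 9.08 and 9.11 in the Mim1 arrays, 10.29 and 10.18 in the Mim2 arrays and 8.76 to 8.95 in the wild type. Of the 8 measured receptors of IL-12, interferon and IL-10 type, 1 was higher and 0 lower at that level, against the same shares of all genes. This was Il10ra at 1.48 ± 0.34 (SE), without overlap (limma, adjusted p = 0.262), and Ifnar2 differed by -0.57 ± 0.37. Of 20 cytokines, 9 lay at or below the random probes on at least 1 array. At an unadjusted p under 0.05, 1 of the 20 was higher and 1 lower, against 7.70% and 6.62% of all genes. The lower one was Il23a, a chain of IL-23, named after its value was seen, at -2.23 without overlap (limma, adjusted p = 0.266) and above the random probes on 7 of 8 arrays. Ebi3, a chain of IL-27 and IL-35, differed by 1.07 ± 0.36 (SE) and the gp130 cytokine gene Clcf1 by 1.0 ± 0.47.

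Of 11 STAT3 targets, 1 was higher and 3 lower at an unadjusted p under 0.05, against 7.70% and 6.62% of all genes. Their median difference was -0.08, but their mean per array ran from 9.75 to 10.24 in the knockout and from 10.36 to 11.06 in the wild type, without overlap. The means of the gamma chain receptors did not overlap either, whereas those of the other pathway lists did. Lbp, an acute phase protein, read 10.98, 10.77, 8.15 and 10.02 in Mim1-5, Mim1-6, Mim2-2 and Mim2-3 and 12.85, 11.98, 13.93 and 11.50 in wild-type animals 1 to 4, with no overlap and a difference of -2.58 ± 0.44 (SE; limma, adjusted p = 0.262). Junb, an AP-1 subunit, read 9.28 and 9.04 in the Mim2 arrays, 11.15 and 11.98 in the Mim1 arrays and 11.54 to 12.24 in the wild type. In males Junb was lower by -2.73 (limma, adjusted p = 0.0267) and Ccnd1, named after its value was seen, by -3.85 (limma, adjusted p = 0.0225). Of 10 targets of STAT4 and STAT6, 1 was higher and 3 lower over the 8 arrays at an unadjusted p under 0.05. Over all genes the shares were 7.70% and 6.62%. Gata3, a T cell regulator that is also a luminal mammary factor, read 8.84 and 9.29 in the Mim2 arrays against 10.70 to 11.73 on the other 6 and was lower in males by -2.31 (limma, adjusted p = 0.0364). Furin, a protease gene, differed by -0.94 ± 0.36 (SE).

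**Figure D5:**
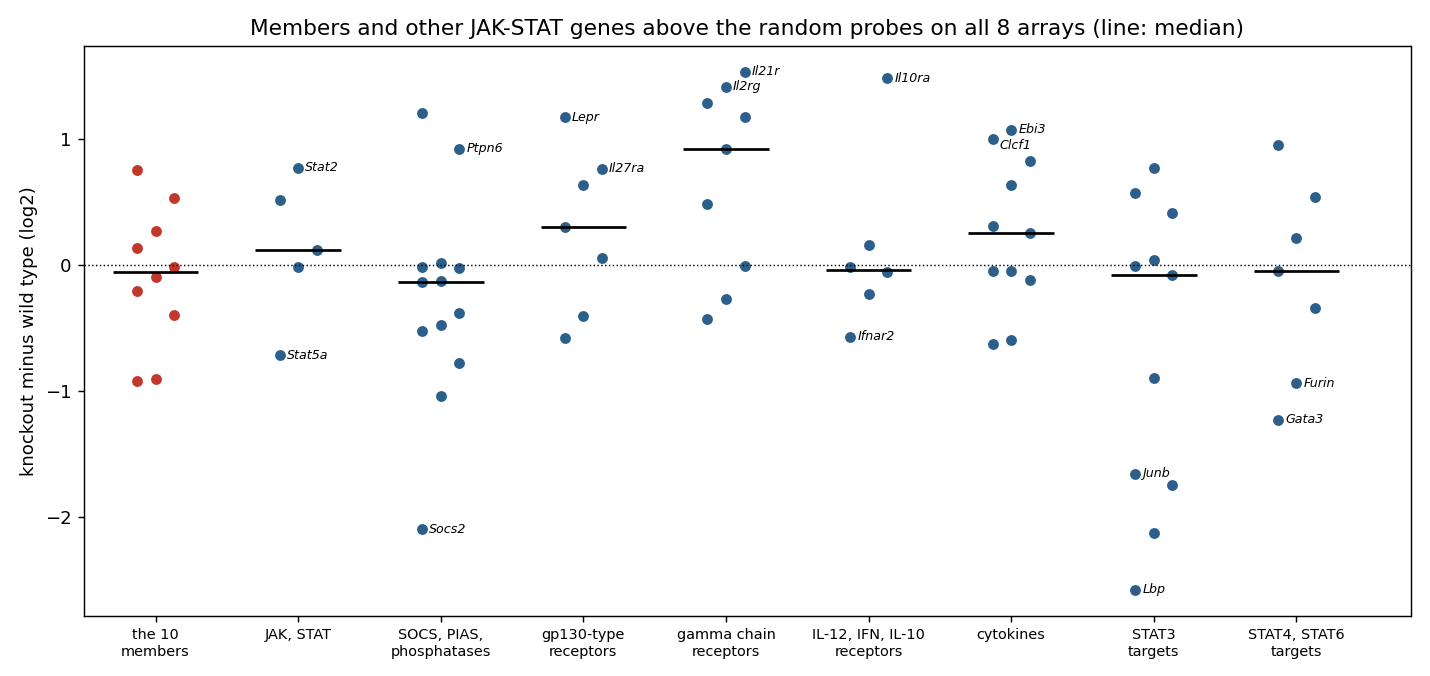
Knockout minus wild type difference on the log2 scale for the 10 members and for other genes of the pathway that lay above the random probes on all 8 arrays, by list, with a line at the median. The gamma chain receptors have a median of 0.92, and the members lie between -0.92 and 0.75.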

How the data were processed

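Total RNA of 8 mouse spleens, labelled with Cy3, was measured on 1-colour NimbleGen arrays, per the labels. The authors deposited 1 table per array with a linear intensity per feature, made with RMA per the submitters' processing notes. RMA removes background, equalises the arrays and merges the probes of a feature. All 19 member features rest on 3 probes. The deposited tables also hold a standard error score, which entered no test. The series table the authors deposited holds 17 of the 19 and equals the array tables within a relative 8.75e-07.

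Intensities were taken to log2. limma 3.58.1 in R 4.3.3 (lmFit, eBayes, two-sided) was fitted to all 44170 features, with Benjamini-Hochberg adjustment over all of them and a threshold of 0.05, as genotype plus sex and as genotype by sex. Intervals are 95%. Standard errors given without an adjusted p come from the same fits. The groups are as labelled, 4 arrays each, and the number of arrays limits the precision. Arrays were also simulated with 44170 features, of which few were changed. Their spread was the residual spread of the genotype by sex fit. The gap between Mim1 and Mim2 arrays, which adds to the residuals of the additive fit in the data, was thus left out. The shares of the additive fit may therefore be too high. The additive fit recovered 1.49%, 56.7% and 100% of changes of 1, 2 and 4 on the log2 scale. The male contrast recovered 0%, 2.99% and 86.4%, and the interaction 0% of each. With few changes the adjustment is stricter than in the male contrast of the data, where 1875 features passed. These shares are therefore not the power of these data, and a lack of calls in these fits says little. Members and lists were chosen with earlier results of these data known. Named genes are the members, the 2 genes of smallest p per pathway list among those above the random probes on all arrays, Jak2, Stat5a, Stat5b, Socs1, 5 markers (Cd79a and Cd3e among them, differing by 0.86 and 0.47, and Csn2, by -3.27) and the nearest profile to each member. Symbols were updated through Entrez numbers, of which 21583 of 24203 matched the GRCm38.p6 table. Protein sequences were not used here, and no promoter of Socs5 is given. Slide and scan were not tested. A gene named by this rule is not reported here.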

Additional observations from a re-analysis of the deposited data

Results flagged for a closer look

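The Jak1 value of 11.47 in Mim2-2 stood apart from the other 3 knockout arrays, which read 10.72 to 10.82. The Socs5 value of 8.40 in Mim2-3 stood apart from 9.49 to 9.61 on the other 3. Such a gap arises by chance in about 1 of 20 groups, and 38 groups of 4 arrays were examined.

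For Stat6 both knockout females lay above both wild-type females and both knockout males below both wild-type males. The male minus female difference was -2.37, which did not pass after adjustment (limma, adjusted p = 0.181). For Tyk2 the same pattern held, with a male minus female difference of -0.70 (limma, adjusted p = 0.559).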

How the results depend on the processing

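Over 18 alternatives of the additive fit, 0 members passed in any. The 16 features called with trend and robust variance, in place of 0, included 0 members. Jak1, Stat3 and Socs5 kept their sign throughout, with ranges of 0.38 to 0.64, -1.18 to -0.17 and -0.57 to -0.06. Without both Mim2 arrays, 2726 features were at an unadjusted p under 0.05, and 0 members, and Tyk2, Stat4, Stat6, Socs3 and Il6st changed sign to 0.14, -0.03, 0.28, -0.36 and -0.18, none past the threshold. Jak3 changed sign to 0.02 with array weights and 0.07 with quantile normalization. Leaving out 1 array, Jak3 ran from -0.12 to 0.09, Il6st from -0.12 to 0.42, Pias1 from -0.28 to 0.10, Tyk2 from -0.32 to -0.12, Stat4 from 0.44 (without wild-type animal 4) to 0.96, Stat6 from -1.2 to -0.56 (without Mim2-3) and Socs3 from 0.10 (without Mim2-3) to 0.53. Socs5 was at -0.09 without Mim2-3. The features at an unadjusted p under 0.05 then ran from 3773 to 7154 and the members from 0 to 2. Members at that level were 0 with no sex term and 2 with the mean of features, where 3373 genes stood in place of 6122 features.

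The alternatives of the fit within sexes were chosen after seeing the data. In males, 2 members passed with median centring, 2 with the filter on dim features and 2 with the mean of features, where Stat3 joined Stat6. A total of 3 passed with the floor at random probes, and 3 with the series values, as Stat4 joined them. Stat3 then had limma adjusted p of 0.0467, 0.0449, 0.0402, 0.0353 and 0.0131. Features called in males rose too, from 1875 of 44170 as reported to 2000 with median centring and 2615 with the floor. The filter on dim features, which tested fewer, gave 2321. The series table gave 4830 of 21856 features in males and 311 in the interaction, and the mean of features 1070 of 24171 genes and 1. The counts of members are to be read beside these. Without 1 array, 0 members passed in males, and features called ran from 0 to 1476. The cause of these shifts was not tested.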
